A study of Mus musculus with 12 samples.

Results

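The effect of losing Tet1 on messenger RNA was measured at embryonic day 13.5 (E13.5) in mouse primordial germ cells (PGCs), from which eggs and sperm descend. The comparison set Tet1-KO cells of genotype Tet1 -/- (2 libraries) against wild-type cells (3 libraries), all from C57BL/6 embryos. These are 5 of the 12 libraries of the series. All rows of the deposited knockout table were taken, 16394 rows, where the series' stage tables list 22552. Each library started from the RNA of 500 to 2000 cells, and amplification for low input gave 2 to 70 ng of cDNA. The targeted allele, the sex of the embryos and whether each library had its own embryos are not given in the sources used here. Whether the deposited p-values rest on the spread among these 5 libraries is not given either, and any such spread may be technical.

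TET1 is a dioxygenase that oxidises 5-methylcytosine, the methylated base of CpG sites, to 5-hydroxymethylcytosine and further products. PGCs erase most of their DNA methylation while they move to and settle in the gonad. In the female gonad they then enter meiosis, the reductional division of germ cells, which begins with Stra8, loads cohesin and a chromosome axis, breaks and repairs the DNA and builds the synaptonemal complex between homologous chromosomes. A group of germline genes is known to be kept silent by promoter methylation in other tissues, and these genes switch on as the methylation is lost.

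Each gene has 1 level per group, in FPKM (fragments per length of transcript and per mapped total), pooled by the authors over the libraries. A level therefore has no spread between libraries, and depth is unknown. Called means an FDR under 0.05 in the authors' deposited table. The log2 ratio is Tet1-KO over wild type, and its standard error (SE) is the one that the deposited p-value implies. In bulk RNA, fewer cells of a type and less RNA per cell cannot be told apart.

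Tet1 itself (chromosome 10, 62267317 to 62342762, build mm9) stood at 0.218 FPKM in Tet1-KO cells and 6.36 FPKM in wild type. Its log2 ratio was -4.87 ± 0.67 (SE), and the authors' deposited table gives an FDR of 1.55e-10. Tet2, a paralogous dioxygenase gene, was at 2.67 FPKM in Tet1-KO cells and 2.50 FPKM in wild type and was not called. Tet3, another paralog, was called lower at levels near 0, with 0.00894 FPKM in Tet1-KO cells and 0.261 FPKM in wild type.

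Most called genes were lower without Tet1. Of the 16394 rows, 899 were called lower in Tet1-KO, which is 5.48 percent, and 111 were called higher, which is 0.677 percent; both directions together made 6.16 percent. The Tet1-KO level was at a median of 38.0 percent of wild type in the rows called lower and 254 percent in the rows called higher. The whole table was shifted as well. Over the 10325 rows at 1 FPKM or more in both groups the median log2 ratio was -0.38, and 74.4 percent of these rows were lower in Tet1-KO. Column totals were 577828 FPKM in Tet1-KO and 775559 FPKM in wild type. Whether this shift belongs to the cells or to the scaling of the libraries was not tested, so calls were also made relative to the median. That test covered the 13751 rows with an SE and gave 226 lower (1.64 percent) and 264 higher (1.92 percent), or 3.56 percent in either direction. All 226 were among the 899, and all 111 genes called higher stayed higher. Subtracting a negative median raises every ratio and leaves its SE unchanged, so neither result is a check of the calls. Centred instead on the 75 ribosomal protein genes, whose median log2 ratio was -0.15, the split was 513 lower and 146 higher.

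**Figure D1:**
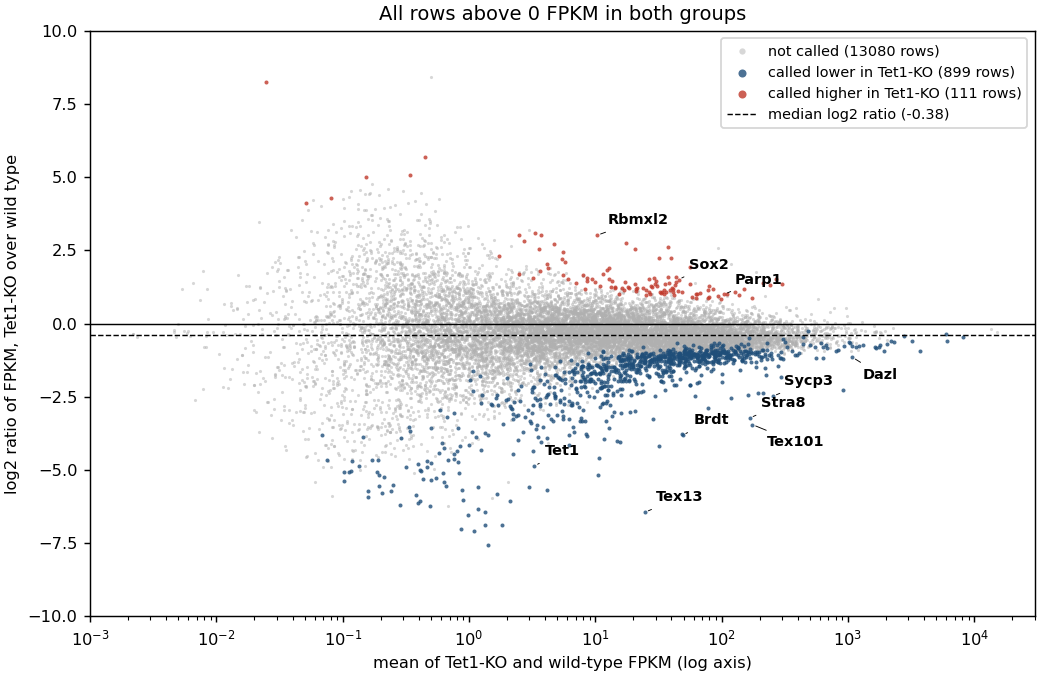
Log2 ratio of FPKM, Tet1-KO over wild type, against the mean FPKM of both groups on a log axis, for the rows above 0 FPKM in both groups; blue points were called lower in Tet1-KO (899), red points higher (111), and the dashed line marks the median log2 ratio of -0.38. Blue points lie below red ones at every level, with Tex13 lowest among the genes marked by name.

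Genes that start meiosis were among the largest falls. Stra8, a gene without which female germ cells do not start meiosis (chromosome 6, 34870959 to 34889342, mm9), fell to 32.2 FPKM in Tet1-KO cells, against 302 FPKM in wild type, so that 10.6 percent of the wild-type level was left. Its log2 ratio was -3.23 ± 0.41 (SE), and the authors' deposited table gives an FDR of 2.16e-12. Meioc, listed in the table as Gm1564 and needed for germ cells to stay in meiotic prophase, fell to 1.96 FPKM in Tet1-KO cells, against 23.5 FPKM in wild type. Dazl, an RNA-binding protein gene that makes germ cells competent for meiosis, fell to 671 FPKM in Tet1-KO cells, against 1491 FPKM in wild type. Boll, of the same gene family, fell to 5.51 FPKM in Tet1-KO cells, against 25.7 FPKM in wild type. Zglp1, a GATA-like factor gene of the oogenic programme, was at 44.4 FPKM in Tet1-KO cells and 109 FPKM in wild type, and Rbm46, an RNA-binding protein gene, at 41.1 FPKM in Tet1-KO cells and 107 FPKM in wild type; both were called lower. Dmrt1, a transcription factor gene that promotes Stra8 in the fetal ovary, was at 105 FPKM in Tet1-KO cells and 182 FPKM in wild type, and Ythdc2, the partner of Meioc, at 2.31 FPKM in Tet1-KO cells and 3.24 FPKM in wild type, and neither was called. Of the 8 meiotic entry genes with a row, 6 were called lower and 0 higher, beside 5.48 percent lower over all rows. Relative to the median 4 were lower, beside 1.64 percent, and Zglp1 and Rbm46 were not.

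Promoter sequences are shown for 3 genes of the fall and 1 of the rise, with every CpG, the site on which TET1 acts, in capitals. Methylation was not measured in these libraries. Each run is the RefSeq window of 250 bases before to 50 bases after the annotated start (GRCm38.p6), read 5′ to 3′ on the gene's own strand.
Stra8, chr6:34920698-34920997, plus strand: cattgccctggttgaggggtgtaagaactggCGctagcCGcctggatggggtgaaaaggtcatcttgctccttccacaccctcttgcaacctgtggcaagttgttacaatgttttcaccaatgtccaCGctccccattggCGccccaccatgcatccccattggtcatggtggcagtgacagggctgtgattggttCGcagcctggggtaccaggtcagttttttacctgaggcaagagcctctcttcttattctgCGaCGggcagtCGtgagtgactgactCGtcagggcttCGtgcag
Tex12, chr9:50561219-50561518, minus strand: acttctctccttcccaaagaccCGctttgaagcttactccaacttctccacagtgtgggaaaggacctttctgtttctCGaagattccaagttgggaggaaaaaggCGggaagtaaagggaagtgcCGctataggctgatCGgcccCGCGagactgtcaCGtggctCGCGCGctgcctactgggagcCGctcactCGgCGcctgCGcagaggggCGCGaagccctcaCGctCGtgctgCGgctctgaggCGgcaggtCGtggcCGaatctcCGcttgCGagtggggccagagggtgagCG
Brdt, chr5:107330944-107331243, plus strand: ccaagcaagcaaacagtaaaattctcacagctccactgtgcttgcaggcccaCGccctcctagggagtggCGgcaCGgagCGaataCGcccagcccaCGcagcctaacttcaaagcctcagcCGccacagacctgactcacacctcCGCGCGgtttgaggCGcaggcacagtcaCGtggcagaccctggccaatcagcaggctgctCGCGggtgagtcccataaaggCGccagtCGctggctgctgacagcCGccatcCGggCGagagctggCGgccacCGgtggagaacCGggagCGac
Sox2, chr3:34649745-34650044, plus strand: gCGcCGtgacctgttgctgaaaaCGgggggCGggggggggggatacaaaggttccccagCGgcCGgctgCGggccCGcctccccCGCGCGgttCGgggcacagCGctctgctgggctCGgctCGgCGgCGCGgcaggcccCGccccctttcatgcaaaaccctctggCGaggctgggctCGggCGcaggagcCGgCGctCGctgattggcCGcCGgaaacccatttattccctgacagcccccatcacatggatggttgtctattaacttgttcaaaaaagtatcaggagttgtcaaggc
The windows hold 10 CpGs in Stra8, 26 in Tex12, 23 in Brdt and 27 in Sox2. Over the 10088 rows that matched a gene with 1 such window, the median was 19 CpGs, with quartiles of 10 and 28. That match reached 61.5 percent of the table, under the 80 percent needed, so promoters of called and other genes are not compared. The letters CACGTG, an E-box, were found on either strand in the Tex12 and Brdt windows and in 9.82 percent of all 10088 windows. GCGGGAA, an E2F site, was found in the Tex12 window and in 8.11 percent of all windows, and CNCCTCAG, letters reported for STRA8 binding, in the Tex12 window and in 9.32 percent. None of these motifs was found in the Stra8 and Sox2 windows.

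Cohesin holds sister chromatids together, and meiotic cells use their own subunits. Rec8, the meiotic kleisin, fell to 63.3 FPKM in Tet1-KO cells, against 325 FPKM in wild type, a log2 ratio of -2.36 ± 0.45 (SE). Smc1b, a meiotic core subunit, was at 81.9 FPKM in Tet1-KO cells and 137 FPKM in wild type, and Stag3 at 14.4 FPKM in Tet1-KO cells and 28.4 FPKM in wild type; neither was called. Of the 4 meiotic cohesin genes 1 was called lower and 0 higher, beside 5.48 percent lower and 0.677 percent higher over all rows. Of the 10 subunits and loaders of mitotic cohesin 0 were called in either direction, which is near those shares. Their median difference in log2(FPKM + 1) was -0.05, beside -0.21 over all rows, and 0.22 after the median was subtracted. Relative to the median 1 meiotic gene was lower, beside 1.64 percent, and 1 mitotic gene was higher, beside 1.92 percent.

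The synaptonemal complex and axis list had 7 of its 10 members called lower and 0 higher, beside 5.48 percent lower over all rows. Relative to the median 5 were lower, beside 1.64 percent. Sycp3, which builds the axis, fell to 77.3 FPKM in Tet1-KO cells, against 433 FPKM in wild type, a log2 ratio of -2.49 ± 0.35 (SE). Its partner Sycp2 fell to 0.507 FPKM in Tet1-KO cells, against 7.72 FPKM in wild type. Sycp1, the transverse filament, fell to 13.7 FPKM in Tet1-KO cells, against 54.6 FPKM in wild type. The central element genes differed among themselves. Tex12 fell to 34.8 FPKM in Tet1-KO cells, against 202 FPKM in wild type, and Syce1 to 101 FPKM in Tet1-KO cells, against 345 FPKM in wild type, while Syce2, which binds TEX12, was at 242 FPKM in Tet1-KO cells and 386 FPKM in wild type and was not called. Hormad1 and Hormad2, HORMA-domain genes of the axis, were called lower, at 46.2 and 41.6 percent of wild type. Neither was lower relative to the median (adjusted p of 0.24 and 0.23).

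Genes for making the DNA breaks were called lower in 4 of 7 cases and higher in 0, beside 5.48 percent lower over all rows. Relative to the median 4 were lower, beside 1.64 percent. Spo11, the nuclease that cuts, was at 5.70 FPKM in Tet1-KO cells and 10.7 FPKM in wild type and was not called. Its accessory genes Mei4 and Iho1 (listed as Ccdc36) were called lower: Mei4 was at 6.98 FPKM in Tet1-KO cells and 24.5 FPKM in wild type, and Iho1 at 1.05 FPKM in Tet1-KO cells and 12.2 FPKM in wild type. Prdm9, the methyltransferase that places the breaks, fell to 0.671 FPKM in Tet1-KO cells, against 5.62 FPKM in wild type. Zcwpw1, a reader of PRDM9 marks, fell to 99.5 FPKM in Tet1-KO cells, against 276 FPKM in wild type.

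Of the 14 strand exchange genes 3 were called lower and 0 higher, beside 5.48 percent lower over all rows. Dmc1, the recombinase specific to meiosis, was at 24.0 FPKM in Tet1-KO cells and 33.3 FPKM in wild type and was not called. Meiob, a single-strand binding protein gene listed as 4930528F23Rik, fell to 1.41 FPKM in Tet1-KO cells, against 21.8 FPKM in wild type, a log2 ratio of -3.95 ± 0.79 (SE). Its partner Spata22 was at 1.70 FPKM in Tet1-KO cells and 7.08 FPKM in wild type, where the FDR of the authors' deposited table is 0.146. Hsf2bp and Brme1 (listed as 4930432K21Rik), whose products work with BRCA2 in meiosis, were called lower, at 40.5 and 37.6 percent of wild type. Hsf2bp was not lower relative to the median (adjusted p of 0.0898), which left 2 of the 14, beside 1.64 percent.

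Of 10 crossover genes 5 were called lower and 0 higher, beside 5.48 percent lower over all rows. Relative to the median 2 were lower, beside 1.64 percent. Tex11, an X-linked gene of the crossover machinery, fell to 7.42 FPKM in Tet1-KO cells, against 27.0 FPKM in wild type. Ccnb1ip1, which encodes the crossover factor HEI10, fell to 25.1 FPKM in Tet1-KO cells, against 103 FPKM in wild type. Cntd1 and M1ap (listed as D6Mm5e) were called lower at 34.9 and 40.3 percent of wild type, and neither was lower relative to the median. Mlh3, a mismatch repair gene used in crossing over, was at 3.98 FPKM in Tet1-KO cells and 3.87 FPKM in wild type. The complex that fixes telomeres to the nuclear envelope fell in all its 3 subunits, and Majin (listed as 1700123I01Rik) had 0.562 FPKM in Tet1-KO cells and 20.4 FPKM in wild type, a log2 ratio of -5.18 ± 0.99 (SE). Terb1 (listed as Ccdc79) fell to 1.65 FPKM in Tet1-KO cells, against 11.3 FPKM in wild type, and Terb2 (listed as 4933406J08Rik) to 4.32 FPKM in Tet1-KO cells, against 20.7 FPKM in wild type. Sun1, whose product spans the envelope in many cell types, was at 12.5 FPKM in Tet1-KO cells and 12.2 FPKM in wild type. Of the 7 telomere attachment genes with a row, 4 were called lower and 0 higher, and 3 were lower relative to the median.

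Over the 7 meiosis lists together, 60 of 67 genes had a row, and the other 7 are not analysed here. Of the 60, 30 were called lower and 0 higher, beside 5.48 percent lower over all rows, and 21 were lower relative to the median, beside 1.64 percent. The Tet1-KO level was below wild type in 58 of the 60. Their median difference in log2(FPKM + 1) was -1.17, beside -0.21 over all rows.

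**Figure D2:**
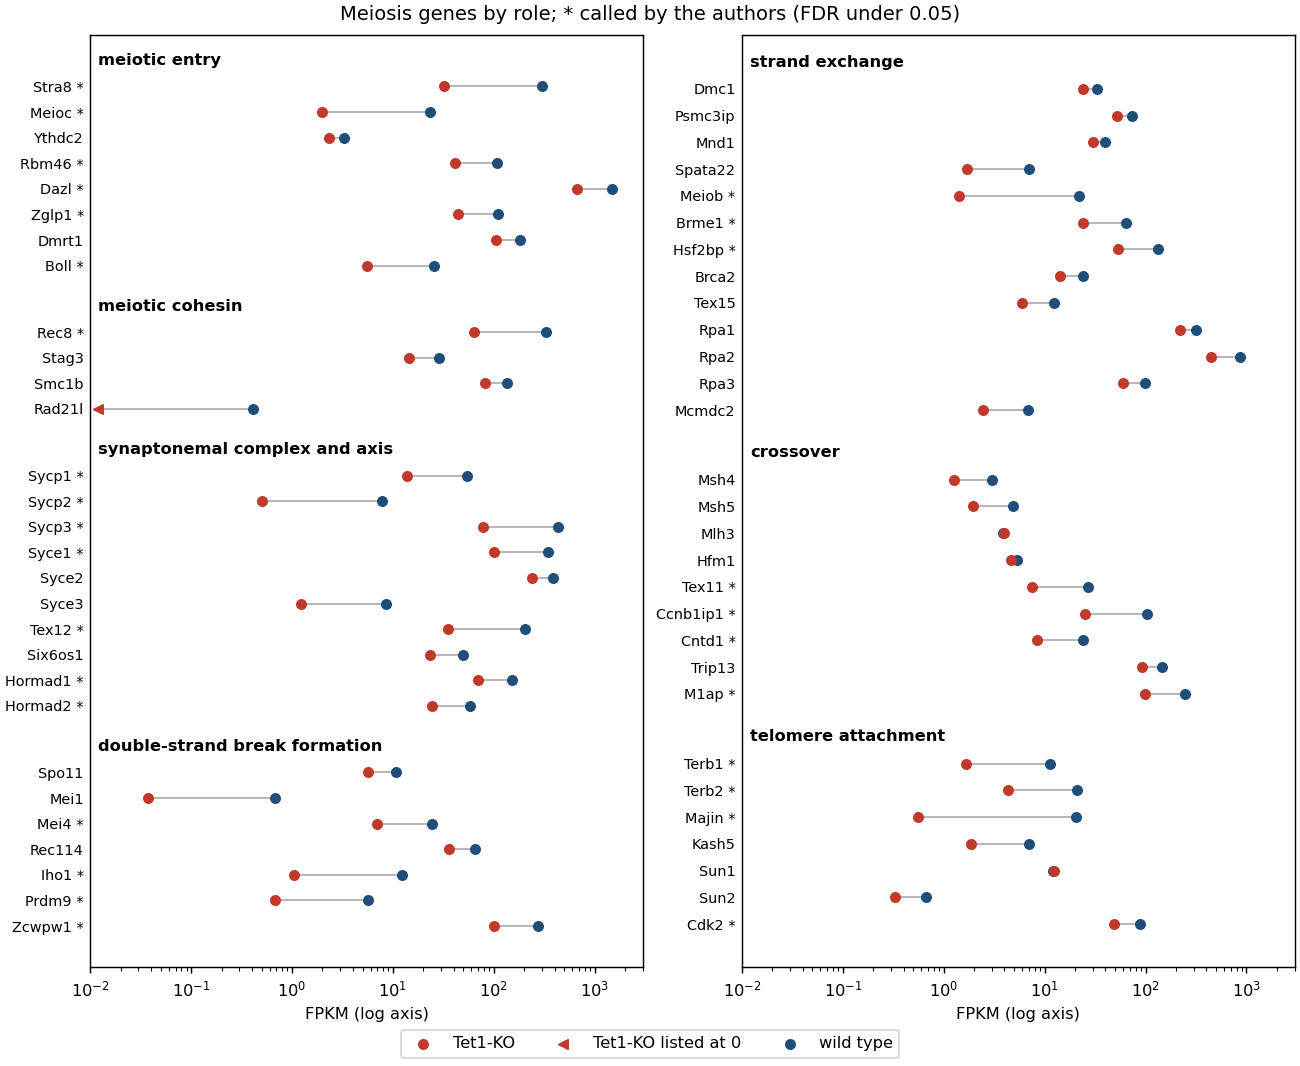
FPKM in Tet1-KO cells (red) and in wild type (blue) on log axes for 58 of the meiosis genes with a row, grouped by role; an asterisk marks a gene called in the authors' table, and a triangle marks the 1 gene listed at 0 in Tet1-KO. The red point lies left of the blue one in 56 of the 58 genes, and Majin has the widest gap among the called genes.

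Germline genes known to be held silent by promoter methylation in other tissues formed another group that was lower. Of 21 with a row, 12 were called lower and 0 higher, beside 5.48 percent lower over all rows, and 9 were lower relative to the median, beside 1.64 percent. The list shares Dazl, Sycp3 and Hormad1 with the meiosis lists. Tex101, a surface glycoprotein gene of germ cells (chromosome 7, 25453030 to 25457069, mm9), fell to 29.2 FPKM in Tet1-KO cells, against 321 FPKM in wild type, a log2 ratio of -3.46 ± 0.44 (SE). Brdt, a testis bromodomain gene, fell to 6.48 FPKM in Tet1-KO cells, against 91.6 FPKM in wild type, and its p-value is listed as 0 in the authors' deposited table, so the SE of 0.48 on its log2 ratio of -3.82 is an upper bound. Slc25a31, a mitochondrial carrier gene of germ cells, fell to 69.1 FPKM in Tet1-KO cells, against 358 FPKM in wild type. Tuba3a and Tuba3b, germline alpha-tubulin genes, were called lower at 20.6 and 18.5 percent of wild type; they are near-identical copies, and how reads were split between them is uncertain. Ddx4, the vasa helicase gene and a general germ cell marker, was at 183 FPKM in Tet1-KO cells and 283 FPKM in wild type, and Dppa3 at 1047 FPKM in Tet1-KO cells and 1266 FPKM in wild type; neither was called.

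The piRNA pathway makes small RNAs that silence transposons, and 9 of its 21 genes with a row were called lower and 0 higher, beside 5.48 percent lower over all rows. Relative to the median 2 were lower, beside 1.64 percent. Mael fell to 131 FPKM in Tet1-KO cells, against 463 FPKM in wild type, and Ddx25, a germ cell RNA helicase gene, to 18.6 FPKM in Tet1-KO cells, against 104 FPKM in wild type. These were the 2. Fkbp6, at 43.9 percent of wild type, Gpat2, at 42.3 percent, and Mov10l1, at 36.6 percent, were called lower only before the median was subtracted. Piwil1 was called lower at levels near 0, with 0.00813 FPKM in Tet1-KO cells and 0.379 FPKM in wild type. Asz1, at 106 FPKM in Tet1-KO cells and 184 FPKM in wild type, was not called.

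A larger share of the rows of chromosome X was called lower than of the rows of any autosome. Of its 684 rows, 65 were called lower (9.50 percent), beside 834 of 15708 autosomal rows (5.31 percent), and the autosomes ranged between 3.21 percent on chromosome 13 and 6.39 percent on chromosome 9. For falls of 2 or more on the log2 scale the share was 5.70 percent on X, or 39 rows, and 1.34 percent on autosomes, with no autosome above 1.93 percent. Rises were called in 1.17 percent of X-linked rows and 0.656 percent of autosomal rows. No test was made of these shares, since neighbouring genes and gene copies are not independent.

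**Figure D3:**
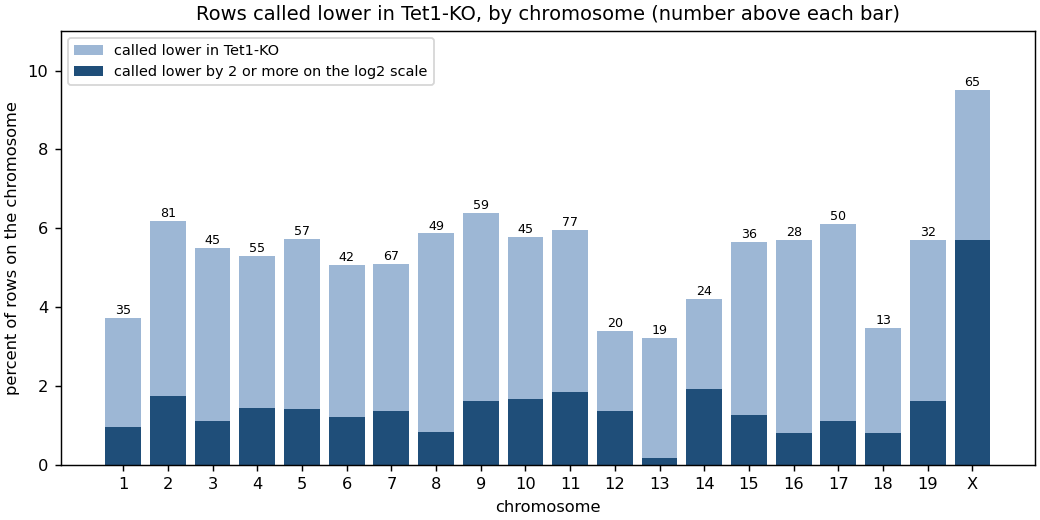
Percent of the rows of each chromosome called lower in Tet1-KO (light bars, with the number of rows above) and called lower by 2 or more on the log2 scale (dark bars). Chromosome X stands highest on both counts, at 9.50 and 5.70 percent.

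Among called genes with at least 5 FPKM in a group, X-linked genes took 5 of the 12 largest falls in log2(FPKM + 1) and 1 of the 12 largest rises. Chromosome X holds 684 of the 16394 rows and 65 of the 899 called lower. Tex13, a testis-expressed gene, fell most, to 0.556 FPKM in Tet1-KO cells, against 48.8 FPKM in wild type, a log2 ratio of -6.46 ± 0.95 (SE). Tsc22d3, a glucocorticoid-induced leucine zipper gene, fell to 3.31 FPKM in Tet1-KO cells, against 60.9 FPKM in wild type. Taf7l, a germ cell variant of a general transcription factor subunit, fell to 6.58 FPKM in Tet1-KO cells, against 89.6 FPKM in wild type. Rhox13, a homeobox gene of germ cells, fell to 0.832 FPKM in Tet1-KO cells, against 20.4 FPKM in wild type. Of the same homeobox cluster, Rhox2a, at 23.9 FPKM in Tet1-KO cells and 56.3 FPKM in wild type, and Rhox10, at 0.252 FPKM in Tet1-KO cells and 2.16 FPKM in wild type, also stood lower and were not called. Rhox6 and Rhox9, the other Rhox genes of the X-linked germline list with a row, stood higher. Rhox6 was at 909.8 FPKM in Tet1-KO cells and 635 FPKM in wild type, and Rhox9 at 1148 FPKM in Tet1-KO cells and 787 FPKM in wild type. Neither was called, though both were higher relative to the median. The rest of the cluster is not described here. Tktl1, a transketolase-like gene, fell to 2.23 FPKM in Tet1-KO cells, against 22.3 FPKM in wild type. Of the 24 X-linked germline genes with a row, 11 were called lower and 0 higher, beside 5.48 percent lower over all rows, among them Mageb4, Magea10, Nxf2, Xlr3a and Xlr5a. Relative to the median 9 were lower, beside 1.64 percent, and 2 higher, beside 1.92 percent; Nxf2 was no longer lower (adjusted p of 0.0982). Of this list, Tex11 is also counted with the crossover genes and Taf7l with the methylation-silenced genes. The Xlr, Mage and Rhox genes are families of similar copies, and how their reads were split is uncertain.

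Several X-linked falls were neighbours. With the rows above 0 FPKM in both groups ordered by their mm9 coordinates, 6 runs of 3 or more consecutive rows were all called lower, and 5 of the 6 were on X. The longest, 8 rows between 144615266 and 146419525, holds Luzp4, a leucine zipper protein gene, and 7 predicted genes. A run of 6 rows between 70319683 and 70467792 holds Xlr4a, Xlr3a, Xlr5a, Xlr5b, Xlr3b and Xlr4b, and a run of 3 that starts at 70479414 holds the copies Xlr4c, Xlr3c and Xlr5c. Around Tex13, 4 rows in sequence between 136991141 and 137474011 were called lower. They are Prps1, a nucleotide synthesis gene, at 1.05 FPKM in Tet1-KO cells and 6.27 FPKM in wild type, Tsc22d3 and Tex13 with the values above, and Vsig1, an immunoglobulin-domain gene, at 0.0131 FPKM in Tet1-KO cells and 1.70 FPKM in wild type. Psmd10, a proteasome subunit gene that follows Vsig1 in the table, was at 60.7 FPKM in Tet1-KO cells and 93.3 FPKM in wild type and was not called. The autosomal run was Acat3, Tcp1, Acat2 and Wtap on chromosome 17, between 13109330 and 13185405. Of the 28 rows in the 6 runs, 20 were lower relative to the median, among them all 6 of the run that starts with Xlr4a. The 8 that were not are Prps1, Acat3, Acat2, Wtap, Xlr5c, Dusp9, Pnck and 1 of the predicted genes. These runs were looked for after the values were seen, and no test was made of them.

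Some pluripotency genes were higher. Sox2, a transcription factor gene of pluripotent cells, rose to 67.3 FPKM in Tet1-KO cells, against 23.7 FPKM in wild type, a log2 ratio of 1.51 ± 0.34 (SE), and the authors' deposited table gives an FDR of 0.00114. The row spans chromosome 3, 34459302 to 34576915 (mm9), which is longer than the Sox2 gene, so overlapping transcripts may share its reads. Nr0b1, an X-linked nuclear receptor gene of embryonic stem cells, rose to 9.25 FPKM in Tet1-KO cells, against 2.18 FPKM in wild type, and Klf2, a zinc finger gene of naive pluripotency, to 124 FPKM in Tet1-KO cells, against 64.3 FPKM in wild type. Tfap2c, listed as Tcfap2c and needed to specify PGCs, rose to 226 FPKM in Tet1-KO cells, against 122 FPKM in wild type. Of the 21 pluripotency genes with a row, 3 were called higher and 0 lower, beside 0.677 percent higher over all rows, and 5 were higher relative to the median, beside 1.92 percent, Esrrb and Sall4 being the added ones. The core factors were not called: Pou5f1 was at 371 FPKM in Tet1-KO cells and 419 FPKM in wild type, and Nanog at 91.0 FPKM in Tet1-KO cells and 88.3 FPKM in wild type. Zfp42, often used as a pluripotency marker, stood lower, at 58.1 FPKM in Tet1-KO cells and 109 FPKM in wild type, where the FDR of the authors' deposited table is 0.0571. Of the 12 germ cell identity genes, Tfap2c was the 1 that was called. Kit, the receptor gene, was at 16.3 FPKM in Tet1-KO cells and 11 FPKM in wild type, and Nanos3, which protects PGCs, at 20.8 FPKM in Tet1-KO cells and 17.7 FPKM in wild type.

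**Figure D4:**
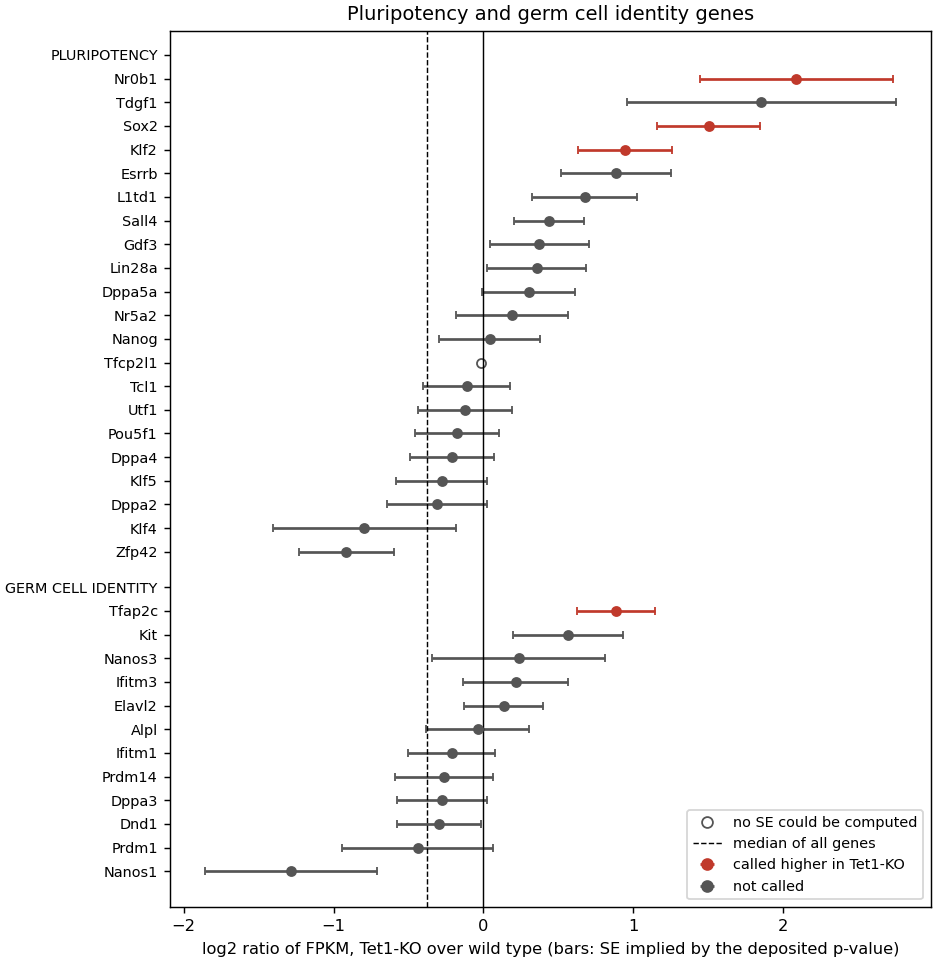
Log2 ratio of FPKM, Tet1-KO over wild type, for pluripotency and germ cell identity genes; bars are the SE implied by the deposited p-value, red marks a call, and the dashed line is the median of -0.38. Nr0b1, Sox2, Klf2 and Tfap2c are the called genes, all to the right of 0.

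The 12 largest rises in log2(FPKM + 1), chosen like the falls, held no gene of the meiosis lists. Rbmxl2, a germ cell RNA-binding protein gene and a retrogene, was at 18.4 FPKM in Tet1-KO cells and 2.27 FPKM in wild type, a log2 ratio of 3.02 ± 0.66 (SE). Ppp1r14b, a phosphatase inhibitor gene, rose to 64.5 FPKM in Tet1-KO cells, against 10.4 FPKM in wild type, and H1fx, a linker histone gene, to 30.5 FPKM in Tet1-KO cells, against 4.50 FPKM in wild type. Hk1, a hexokinase gene that starts glycolysis, rose to 19.2 FPKM in Tet1-KO cells, against 5.45 FPKM in wild type. Parp1, a poly(ADP-ribose) polymerase gene of DNA repair, rose to 139 FPKM in Tet1-KO cells, against 69.7 FPKM in wild type. It was the 1 gene called higher among 15 of the TET and base excision repair list, beside 0.677 percent over all rows. Another 3 of the 15, Tet1 and Tet3 among them, were called lower, beside 5.48 percent. Egr1, an immediate early gene, rose to 19 FPKM in Tet1-KO cells, against 6.61 FPKM in wild type. It was the 1 call among 16 such genes, beside 0.677 percent higher over all rows.

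Over all rows 5.48 percent were called lower and 0.677 percent higher, and lists of chromatin regulators and imprinted genes are read beside these shares. Of 19 polycomb genes 0 were called in either direction, with a median difference in log2(FPKM + 1) of -0.02, and 0.33 after the median was subtracted. Among 13 DNA methylation genes 1 was called, Uhrf1, a cofactor of maintenance methylation, which was at 5.86 FPKM in Tet1-KO cells and 11.7 FPKM in wild type. Among 13 H3K9 methylation genes 1 was called, Ehmt1, a methyltransferase gene, which was at 7.74 FPKM in Tet1-KO cells and 15.3 FPKM in wild type. Neither was lower relative to the median (adjusted p of 0.35 and 0.34). Of 34 imprinted genes 3 were called lower and 0 higher, led by Dlk1, at 0.896 FPKM in Tet1-KO cells and 6.37 FPKM in wild type, the 1 that was also lower relative to the median.

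Signals known to act on meiotic entry gave 1 call in each list. Of 16 retinoic acid genes 1 was called higher and 0 lower, where the shares over all rows were 0.677 percent higher and 5.48 percent lower. Among 14 BMP response genes Msx1, a homeobox target of BMP signals, was the 1 that was called; it fell to 88.1 FPKM in Tet1-KO cells, against 217 FPKM in wild type, and was not lower relative to the median (adjusted p of 0.12). The targets Id1 and Id2 were not called, with Id1 at 143 FPKM in Tet1-KO cells and 246 FPKM in wild type and Id2 at 48.7 FPKM in Tet1-KO cells and 83.8 FPKM in wild type. In the oogenesis list 1 of 15 genes was called lower, Sohlh2, a helix-loop-helix factor gene, at 113 FPKM in Tet1-KO cells and 326 FPKM in wild type.

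**Figure D5:**
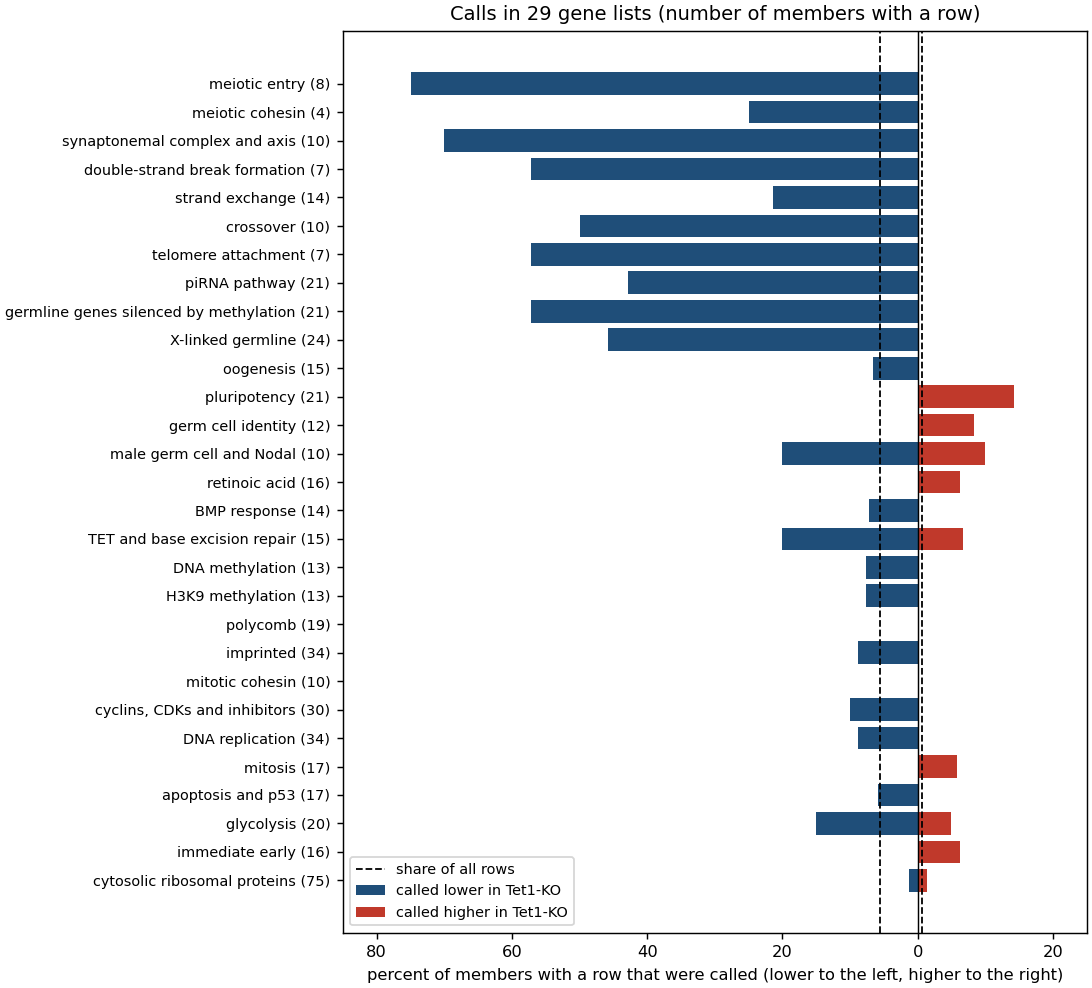
Percent of the members with a row that were called lower in Tet1-KO (blue, to the left) or higher (red, to the right), in the gene lists other than those of sex and cell type markers, with the number of members beside each name; dashed lines mark the shares of all rows, 5.48 percent lower and 0.677 percent higher. The meiosis, piRNA, methylation-silenced and X-linked germline lists reach farthest left of the lists drawn, and the pluripotency list farthest right. The TET and base excision repair list counts Tet1 itself.

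Of 34 DNA replication genes 3 were called lower and 0 higher (8.82 percent lower), of 30 cyclins, kinases and inhibitors 3 lower and 0 higher (10 percent), and of 75 cytosolic ribosomal protein genes 1 lower (1.33 percent) and 1 higher, beside 5.48 percent lower and 0.677 percent higher over all rows. Relative to the median 0 replication genes were lower and 1 was higher. Ccnd1, the cyclin D1 gene, fell to 11.7 FPKM in Tet1-KO cells, against 41.2 FPKM in wild type, and Cdkn2d, an inhibitor of its kinase, to 40.6 FPKM in Tet1-KO cells, against 125 FPKM in wild type. These were the 2 of the cyclin list that were also lower relative to the median.

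Markers checked the label of the cells. Dazl, Ddx4 and Dppa3, the germ cell markers given above, were abundant in both groups. Y-linked Eif2s3y was at 0.0296 FPKM in Tet1-KO cells and 0.137 FPKM in wild type, and Ddx3y was listed at 0 in Tet1-KO and at 0.00862 FPKM in wild type. By these Y-linked genes, little of either group can have been male cells. Xist, the X-inactivation RNA, was at 0.0489 FPKM in Tet1-KO cells and 0.0224 FPKM in wild type. Of 48 markers of gonadal soma, mesenchyme, vessels, blood and epithelium, 38 had a row, and 24 of these were under 1 FPKM in Tet1-KO cells and 26 in wild type. Their summed levels were 738 FPKM in Tet1-KO cells and 709.8 FPKM in wild type. The 5 markers at 50 FPKM or more in both groups were Sparc, Vim, Pecam1, Krt18 and Epcam. They made up 697 FPKM of the sum in Tet1-KO cells and 675 FPKM in wild type. Bulk RNA cannot tell whether the germ cells themselves make the RNA of these 5, so their sums do not measure other cell types. The lists stood in different directions. The mesenchyme list summed to 360 FPKM in Tet1-KO cells and 253 FPKM in wild type, and the epithelium list to 254 FPKM in Tet1-KO cells and 363 FPKM in wild type. The other 33 markers summed to 40.7 FPKM in Tet1-KO cells and 35.2 FPKM in wild type, with 15 higher and 17 lower in Tet1-KO. Vim, an intermediate filament gene on the mesenchyme list, was called higher, at 207 FPKM in Tet1-KO cells and 91.7 FPKM in wild type. Pdgfra, the other call, was lower, at 0.00478 FPKM in Tet1-KO cells and 0.2 FPKM in wild type, and was not lower relative to the median. Each direction made 2.63 percent of the 38, beside 0.677 percent higher and 5.48 percent lower over all rows. Relative to the median 0 of the 38 were lower, beside 1.64 percent, and 2 were higher, beside 1.92 percent. The granulosa markers Foxl2, at 0.954 FPKM in Tet1-KO cells and 0.159 FPKM in wild type, and Wnt4, at 1.77 FPKM in Tet1-KO cells and 0.177 FPKM in wild type, and the gonadal soma marker Gata4, at 0.861 FPKM in Tet1-KO cells and 0.146 FPKM in wild type, stood higher and were not called. The granulosa markers with the highest levels moved little. Irx3 was at 8.79 FPKM in Tet1-KO cells and 8.81 FPKM in wild type, and Rspo1 at 3.51 and 2.98 FPKM. Of the 6 gonadal soma markers with a row, 4 stood higher and 2 lower, among the latter Nr2f2, at 0.00784 FPKM in Tet1-KO cells and 0.178 FPKM in wild type. Of the 38, 9 were listed at 0 in Tet1-KO and 2 in wild type. The part of other cell types in the changes above was not tested.

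Levels at other times come from a separate table that the authors normalised apart, so they are set beside these values without comparison. Stra8 was there at 0.210 FPKM at E11.5 and 39.0 FPKM in cells labelled E13.5m. Brdt was at 6.35 FPKM at E11.5 and 65.5 FPKM in E13.5m cells. Dazl was at 317 FPKM at E11.5 and 1366 FPKM in E13.5m cells. Sox2 was at 46.6 FPKM at E11.5 and 18.7 FPKM in E13.5m cells. Eif2s3y was at 47.6 FPKM at E11.5 and 271 FPKM in E13.5m cells.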

How the data were processed

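Illumina HiSeq libraries were made from PGC RNA, per the labels' protocols. For alignment the submitters' processing notes give Bowtie and TopHat 1.3.1 on the build mm9, and for quantification Cufflinks and Cuffdiff 1.0.3, for the Tet1-KO and wild-type libraries, with versions 1.2.1 for the E11.5 and E13.5m libraries. Strand use and gene annotation are not given in the sources used here. The authors deposited 1 FPKM value per gene and group, per the file headers, with a p-value and an FDR. The deposited FDR was treated as a score, since 2182 values exceed 1, up to 1.06. For 11 rows the p-value is listed as 0 and the SE used 1.11e-15 in its place, the smallest p-value above 0 that the authors deposited. A gene at 0 FPKM in a group has no log2 ratio.

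Log2 ratios were taken from the deposited FPKM columns. The SE is the ratio divided by the normal deviate that its deposited p-value stands for, where that deviate was above 0.05. Relative to the median, the ratio minus -0.38 was tested with this SE by a two-sided normal test with Benjamini-Hochberg adjustment over 13751 rows, at 0.05; the procedure was tested on simulated data. Changes were ranked, and lists summarised, by log2(FPKM + 1), a scale on which low genes change by less than their ratio. The named genes are Tet1, Stra8, Tex101 and Sox2, the 12 largest rises and falls among called rows at 5 FPKM or more, members of the lists with calls first and then by size of change, the sex markers, the 5 largest changes with an FDR near 0.05, and rows at 0 in 1 group. The members, lists and tests were chosen with earlier results of these data known. Genes outside this rule (Tet2, Dmc1, Ddx4, Rhox6, Rhox9, Pou5f1, Nanog and those of runs of neighbouring rows) were named after their values were seen. Of 540 list entries, 499 matched a row by symbol or by an older symbol. Depth is unknown and no counting interval could be given. Values of some list members are not reported here. 22 rows whose names read as dates were never named. Alternatives were other centres, an FDR of 0.01, Benjamini-Hochberg values from the deposited p-values, at least 1 FPKM in a group, a log2 ratio of at least 1, 1 row per symbol, and 0.1 as pseudocount. The tools were scipy 1.17.1, pandas 2.3.3 and numpy 2.4.6 under Python 3.11.15, with matplotlib 3.10.9 for figures.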

Additional observations from a re-analysis of the deposited data

How the results depend on the processing

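With the FDR of the authors' deposited table held under 0.01, 328 rows were lower and 43 higher in Tet1-KO, instead of 899 and 111. With Benjamini-Hochberg values from the deposited p-values, at least 1 FPKM in a group, a log2 ratio of at least 1, or 1 row per symbol, between 762 and 896 were lower and between 99 and 111 higher. Relative to the median of the ribosomal protein genes, 513 were lower and 146 higher, instead of 226 and 264, while the other centres gave between 200 and 213 lower and between 274 and 308 higher, with 207 and 280 for rows at 10 FPKM or more. The cause was not tested. Of 134 named genes with a log2 ratio, subtracting the median ended the call of 28, gave 5 a call, and turned the direction of 4 that were not called, Pou5f1 (to 0.20), Dppa3 (to 0.10), Sparc (to 0.30) and Krt18 (to 0.027). No paired analysis was possible because the table holds 1 pooled value per group. Leaving out each library was not possible for the same reason.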

Other observations

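Some genes of the male germ cell programme and of metabolism were also called. Otx2, a homeobox gene expressed in male PGCs, was called lower at 0.0207 FPKM in Tet1-KO cells and 1.95 FPKM in wild type, and Nanos2, which drives the male fate of germ cells, at 0.0247 FPKM in Tet1-KO cells and 0.809 FPKM in wild type; Nanos2 was not lower relative to the median (adjusted p of 0.0985). Acvr2b, an activin receptor gene, rose to 25 FPKM in Tet1-KO cells, against 9.32 FPKM in wild type. In the glycolysis list, where Hk1 rose, 3 of 20 genes were called lower, beside 5.48 percent over all rows, and 0 were lower relative to the median. They were Ldha, the lactate dehydrogenase A gene, at 49.6 FPKM in Tet1-KO cells and 120 FPKM in wild type, Slc16a3, a lactate exporter gene, at 2.23 FPKM in Tet1-KO cells and 8.62 FPKM in wild type, and Aldoc, an aldolase gene, at 5.96 FPKM in Tet1-KO cells and 19.6 FPKM in wild type. Bub1b, a spindle checkpoint gene, rose to 33.6 FPKM in Tet1-KO cells, against 14.4 FPKM in wild type. It was the 1 call among 17 mitosis genes, beside 0.677 percent higher over all rows, and 14 of the 17 stood below wild type.

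A gene at 0 FPKM in a group was never called. Of 18 rows at 0 in 1 group and at 2 FPKM or more in the other, 12 were at 0 in Tet1-KO and 6 in wild type, and 8 were small RNA genes. Cyp26a1, which encodes an enzyme that breaks down retinoic acid, was listed at 0 in Tet1-KO and at 2.24 FPKM in wild type, where the FDR of the authors' deposited table is 0.11. Near the threshold, Gchfr was called at 1.47 FPKM in Tet1-KO cells and 13.9 FPKM in wild type, while Spaca1, at 3.34 FPKM in Tet1-KO cells and 15.4 FPKM in wild type, and Npw, at 0.46 FPKM in Tet1-KO cells and 7.90 FPKM in wild type, were not.

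The share of rows called lower moved with level and with transcript length. It was 1.15 percent of rows with a mean under 1 FPKM and 10.9 percent of rows between 20 and 100 FPKM. Among rows with a mean of 1 FPKM or more it was 1.84 percent for genes whose longest GENCODE transcript is under 1000 bases and 10.5 percent between 2000 and 4000 bases. The part of level and length in the gene lists above was not tested.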
